A study of Arabidopsis thaliana with 42 samples.

Results

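The comparison described here is that of link1link2 seedlings with wild-type seedlings of Arabidopsis thaliana in the morning, at zeitgeber time 2 (ZT2, 2 h after lights on). Its members are the 3 link1link2 and the 3 wild-type (WT, accession Col-0) libraries of that time, chosen by the name and hour in the column headers, 6 of the 42 libraries of the series. Messenger RNA was sequenced from 9-day-old seedlings grown on MS medium at 22 °C under a 16 h photoperiod, with 3 libraries per genotype at each of ZT2, ZT6, ZT10, ZT14, ZT18 and ZT22. A second experiment compared the same genotypes in continuous light, with 3 libraries each, and for its seedlings the design text and the labels' protocol give different ages. The double mutant is affected in the genes that the labels call LINK1 and LINK2, taken here to be LNK1 and LNK2, and its alleles are not given in the sources used here. Headers of the mutant columns carry a name of unclear meaning, and these columns were taken as link1link2 because the remaining ones bear the WT accession. Libraries are called A, B and C after the letters in the headers. The labels do not state that the 3 libraries of a group came from separately grown seedlings, and the spread behind each p-value may therefore be technical.

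The plant circadian clock is a network of genes that repress and activate each other around the day. The MYB-like factors CCA1 and LHY peak at dawn, pseudo-response regulators follow through the day, and TOC1, ELF3, ELF4 and LUX are expressed towards evening. LNK proteins are light-induced coactivators that bind REVEILLE (RVE) MYB-like factors such as RVE8 and act on transcription in the morning.

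LNK1 and LNK2 were measured first. LNK2 stood at 13.2, 10.6 and 12 CPM in link1link2, against 701, 761 and 727 CPM in WT, where CPM are counts scaled to library size with TMM factors. LNK1 stood at 69, 74.4 and 78.9 CPM in link1link2, against 251, 255 and 249 CPM in WT. The genotypes did not overlap for either gene. On the log2 scale, link1link2 over WT, LNK2 differed by -5.93 ± 0.14 (SE) and LNK1 by -1.77 ± 0.07, with adjusted p = 5.13e-24 and 1.94e-23 in edgeR's quasi-likelihood test over all genes. Reads from LNK1 remained in the mutant. A count per gene does not show from which part of a transcript its reads came.

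The other members of the family were lower as well. LNK3 had 49.2, 48.7 and 52 CPM in link1link2, against 82, 87.1 and 76.6 CPM in WT, a log2 fold change of -0.72 ± 0.08 (adjusted p = 1.32e-08). LNK4 averaged 76.3 ± 5.32 CPM in link1link2 and 88.7 ± 5.16 CPM in WT (SD, n = 3 each). Its log2 fold change of -0.22 (adjusted p = 0.0444) was not past the threshold without link1link2 A, without link1link2 B, without WT B, with the ZT2 libraries fitted alone or in DESeq2.

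Across the transcriptome, 3306 of 20518 genes tested (16.1%) passed the threshold at ZT2, an adjusted p under 0.05. Of these, 1750 (8.53% of the genes tested) were higher and 1556 (7.58%) were lower in link1link2. Counts of called members in the gene lists below are to be read beside these shares. In 3023 of the called genes the 3 link1link2 and the 3 WT libraries did not overlap, as they did not in 28.5% of all genes tested. Most changes were small, with 110 genes at least 2-fold higher and 145 at least 2-fold lower. A test against a 1.5-fold change called 39 genes higher and 65 lower, and 131 of the 171 called genes followed by name were no longer called by it. The balance of directions moved with single libraries. Without link1link2 C there were 948 higher and 1354 lower calls, without WT A 1031 and 1302, and without WT C 1147 and 1567. With organelle genes left out the calls split into 1463 higher and 1730 lower.

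Total counts ran from 9179278 to 10641919 in the link1link2 libraries and from 7468622 to 13576565 in the WT libraries. The share of counts from plastid-encoded genes was 0.649% to 2.17% in link1link2, highest in library C, and 0.602% to 0.931% in WT. Correlations of log2 CPM across genes, which are not independent replicates, were 0.9822 to 0.9845 within link1link2, 0.984 to 0.9878 within WT and 0.9671 to 0.9839 between genotypes. By chi-square values per degree of freedom on raw counts, library C of link1link2 stood apart from the others of its group. They were 12.9 against A and 8.23 against B, beside 4.65 between A and B and 2.35 to 4.27 between WT libraries. The correlations did not set C apart. They were 0.9839 between A and C, 0.9822 between B and C and 0.9845 between A and B.

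Of the dawn-phased clock genes, 6 of 10 tested were lower in link1link2 and 4 did not pass. CCA1 had 179, 172 and 190 CPM in link1link2, against 405, 420 and 390 CPM in WT. Its log2 fold change was -1.17 ± 0.08 (adjusted p = 3.6e-14), and the groups were far apart. LHY, the closest relative of CCA1, had 332, 308 and 323 CPM in link1link2, against 448, 408 and 391 CPM in WT. Its log2 fold change was -0.37 ± 0.08 (adjusted p = 0.000632), a smaller difference with no overlap between groups. RVE1, a MYB-like factor that connects the clock with auxin synthesis, had 43.4, 43 and 42.6 CPM in link1link2, against 109, 112 and 115 CPM in WT. Its log2 fold change was -1.38 ± 0.08 (adjusted p = 2.77e-17).

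RVE8, the partner of the LNK proteins, averaged 71.3 ± 4.51 CPM in link1link2 and 88.6 ± 0.878 CPM in WT (SD, n = 3 each), a log2 fold change of -0.31 (adjusted p = 0.00409). RVE7 and RVE4 had log2 fold changes of -0.49 and -0.20. The RVE4 call (adjusted p = 0.0493) was lost without link1link2 A, link1link2 C, WT A or WT B. RVE2, ASG4 and the RVE-type loci AT4G01280 and AT5G52660 did not pass, with log2 fold changes between -0.22 and 0.06. ASG4 and AT4G01280 overlap other loci, which makes their counts uncertain. The median log2 fold change of the 10 genes was -0.269, beside 0.019 over all genes tested.

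**Figure D1:**
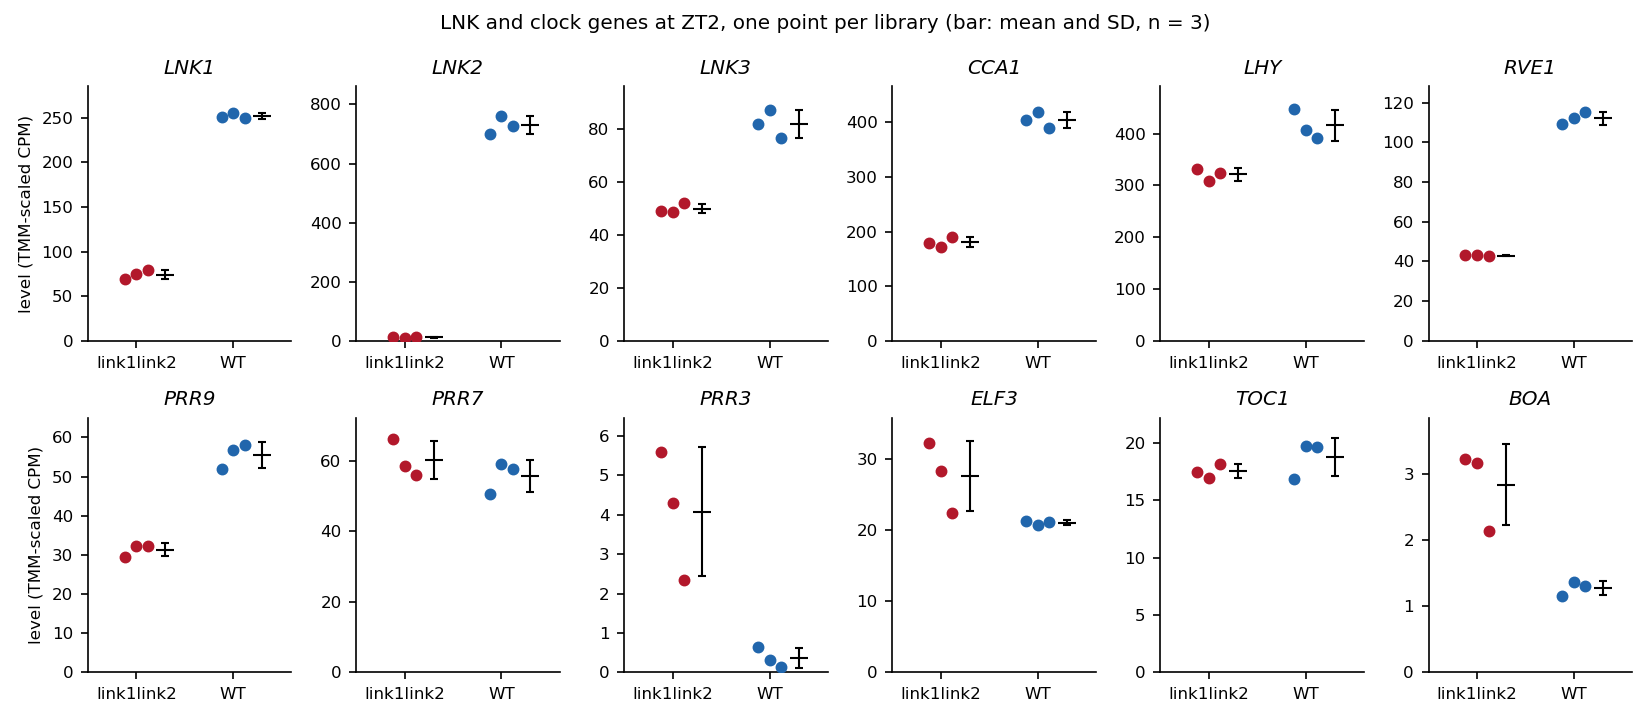
Levels of 12 LNK and clock genes at ZT2 in TMM-scaled CPM, with link1link2 (red) left of WT (blue), one point per library and the mean with its SD (n = 3) beside the points. LNK1, LNK2, LNK3, CCA1, LHY, RVE1 and PRR9 lie lower in all 3 link1link2 libraries than in all 3 WT libraries, PRR3, ELF3 and BOA lie higher, and PRR7 and TOC1 overlap.

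Of 12 LNK, dawn and day genes called at ZT2, 5 held a G-box (CACGTG, the site of light-signalling bZIP and bHLH factors) in the 300 bases before the gene start. They are shown because they include RVE1 and CCA1, the dawn genes with the largest differences, and were chosen after their values were seen. The sequences are from the RefSeq annotation of TAIR10.1, written 5′ to 3′ on the gene's strand, with the G-box in capitals. CCA1 is chr2:19245291-19245590 on the plus strand, LHY chr1:37872-38171 on the minus strand, RVE1 chr5:5692993-5693292 on the minus strand, LNK3 chr3:3923215-3923514 on the plus strand and PRR9 chr2:19232307-19232606 on the plus strand.
CCA1: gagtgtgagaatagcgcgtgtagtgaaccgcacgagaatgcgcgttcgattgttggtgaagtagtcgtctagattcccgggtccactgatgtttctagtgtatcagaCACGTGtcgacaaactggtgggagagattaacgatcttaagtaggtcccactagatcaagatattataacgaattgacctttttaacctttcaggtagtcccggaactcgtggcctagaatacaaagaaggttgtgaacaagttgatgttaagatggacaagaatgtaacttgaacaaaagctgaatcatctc
LHY: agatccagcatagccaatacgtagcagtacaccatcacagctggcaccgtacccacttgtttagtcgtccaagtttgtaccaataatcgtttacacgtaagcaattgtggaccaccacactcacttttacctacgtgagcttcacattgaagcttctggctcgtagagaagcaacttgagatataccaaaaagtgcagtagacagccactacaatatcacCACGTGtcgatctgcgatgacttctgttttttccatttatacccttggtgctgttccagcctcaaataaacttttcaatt
RVE1: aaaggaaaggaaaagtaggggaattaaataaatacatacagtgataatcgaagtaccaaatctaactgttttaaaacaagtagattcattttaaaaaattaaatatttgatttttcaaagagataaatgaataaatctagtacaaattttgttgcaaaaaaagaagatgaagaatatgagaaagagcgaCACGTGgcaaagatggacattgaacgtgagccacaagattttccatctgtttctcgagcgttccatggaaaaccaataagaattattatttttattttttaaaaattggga
LNK3: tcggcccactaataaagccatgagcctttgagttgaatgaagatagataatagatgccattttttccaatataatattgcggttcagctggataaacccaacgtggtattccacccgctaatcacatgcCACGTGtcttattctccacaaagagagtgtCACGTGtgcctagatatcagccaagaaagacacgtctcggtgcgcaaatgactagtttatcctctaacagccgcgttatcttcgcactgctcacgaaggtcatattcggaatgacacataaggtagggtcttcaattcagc
PRR9: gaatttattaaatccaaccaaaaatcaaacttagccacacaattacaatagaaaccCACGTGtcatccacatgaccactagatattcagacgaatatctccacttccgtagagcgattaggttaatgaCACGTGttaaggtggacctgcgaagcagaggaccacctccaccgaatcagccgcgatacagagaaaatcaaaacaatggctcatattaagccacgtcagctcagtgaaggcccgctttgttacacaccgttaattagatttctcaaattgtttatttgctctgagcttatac

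The G-box starts 193 bases before the gene start in CCA1, 80 in LHY and 111 in RVE1. LNK3 has 2 copies, which start 171 and 141 bases before the gene start, and PRR9 has 2, at 244 and 172 bases. RVE2, ASG4, AT4G01280 and PRR7, which were not called, also hold one, and LNK1 and LNK2 hold none. The evening-phased genes were left out of this choice. Among them BOA, called higher, and LUX, not called, hold a G-box as well. A G-box was found in the promoters of 7.42% of 1738 genes higher at ZT2, 10.8% of 1555 genes lower and 7.98% of 20331 genes tested. A match describes the letters and is not a bound site.

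Day-phased clock genes had calls in either direction. PRR9, a repressor of CCA1 and LHY, had 29.4, 32.3 and 32.3 CPM in link1link2, against 51.9, 56.8 and 58 CPM in WT. The log2 fold change was -0.83 ± 0.10 (adjusted p = 2.22e-08). PRR3, a pseudo-response regulator that stabilizes TOC1, had 5.6, 4.29 and 2.36 CPM in link1link2, against 0.642, 0.32 and 0.145 CPM in WT. The link1link2 libraries held 118 reads in all and the WT libraries 10, a 11.3-fold excess with a 95% counting interval from 5.95 to 24.3 (adjusted p = 7.38e-10). ZT2 was the lowest of the 6 times for PRR3 in WT, with its highest WT mean, 60.3 CPM, at ZT10. PRR7, PRR5, GI, FKF1, ZTL and LKP2 did not pass. PRR7 had 66.1, 58.5 and 55.9 CPM in link1link2, against 50.6, 58.9 and 57.7 CPM in WT, with overlapping groups. GI, a large scaffold protein of the photoperiod pathway, had a log2 fold change of 0.36 with adjusted p = 0.0584. It was called higher with the ZT2 libraries fitted alone and in DESeq2.

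Of the 9 evening-phased genes tested, 3 were higher and none lower. ELF3, a scaffold of the evening complex, had 32.2, 28.3 and 22.3 CPM in link1link2, against 21.3, 20.7 and 21.1 CPM in WT. The lowest link1link2 library lay just above the WT range, and the log2 fold change was 0.40 ± 0.08 (adjusted p = 0.000423), a call lost with the ZT2 libraries fitted alone. BOA, a homologue of LUX, had 3.23, 3.16 and 2.13 CPM in link1link2, against 1.16, 1.36 and 1.3 CPM in WT (log2 fold change 1.14, adjusted p = 0.00339). JMJD5, a clock-associated histone demethylase, had a log2 fold change of 0.86 (adjusted p = 0.0332), which was lost without link1link2 C, WT A or WT C and with the ZT2 libraries fitted alone. TOC1, ELF4, LUX, CHE, COR27 and AT4G33980 did not pass. CHE (-0.21) was called lower with organelle genes left out and without link1link2 C. TOC1 stood at 17.5, 16.9 and 18.18 CPM in link1link2, against 16.8, 19.7 and 19.7 CPM in WT. COR27 and AT4G33980 reached at most 0.32 CPM in any library of this time.

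Of the clock genes called at ZT2, RVE7 and BOA held an evening element, AAAATATCT on either strand, in the 300 bases before the gene start, and none held the CCA1-binding site AAAAATCT. PRR5, FKF1, TOC1, LUX and COR27, which were not called, also held an evening element. The evening element is the motif through which CCA1 and RVE8 act on evening genes. Both promoters are printed from the same annotation with the element in capitals. RVE7 is chr1:6308244-6308543 on the minus strand, with the element 50 to 42 bases before the start. BOA is chr5:24003588-24003887 on the plus strand, with the reverse complement 43 to 35 bases before the start.
RVE7: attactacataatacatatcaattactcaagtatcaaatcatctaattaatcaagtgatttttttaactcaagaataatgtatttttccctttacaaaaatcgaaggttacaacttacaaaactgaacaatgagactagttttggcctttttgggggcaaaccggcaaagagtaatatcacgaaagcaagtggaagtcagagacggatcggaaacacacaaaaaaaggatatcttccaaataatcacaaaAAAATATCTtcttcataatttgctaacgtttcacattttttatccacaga
BOA: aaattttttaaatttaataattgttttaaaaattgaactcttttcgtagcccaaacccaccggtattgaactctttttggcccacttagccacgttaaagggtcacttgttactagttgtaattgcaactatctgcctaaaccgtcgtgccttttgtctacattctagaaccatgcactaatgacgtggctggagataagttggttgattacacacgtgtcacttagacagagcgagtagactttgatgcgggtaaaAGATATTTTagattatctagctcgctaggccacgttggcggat

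The evening element was in 3.51% of the promoters of genes higher at ZT2, 3.22% of those lower and 2.89% of all tested. The CCA1-binding site was in 9.61%, 6.56% and 7.92% of the same sets. The I-box GATAAG, known from promoters of photosynthesis genes, was in 12.3%, 18.1% and 14.6%. All motifs were searched on both strands, and these shares are given without a test. The HUD element CACATG was in 14.5%, 14.7% and 13.0%, and the telo-box AAACCCT in 8.4%, 6.11% and 7.49%.

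Among 11 clock-driven output genes, 4 were higher and 2 lower. GRP7, an RNA-binding protein gene of the evening, had 180, 197 and 168 CPM in link1link2, against 80.5, 73.3 and 93.5 CPM in WT, a log2 fold change of 1.15 ± 0.11 (adjusted p = 1.51e-09). Its relative GRP8, the catalase gene CAT3 and the kinase gene WNK1 were also higher, with log2 fold changes of 0.52, 0.48 and 0.37. CDF3 and CDF1, DOF factors that repress flowering genes in the morning, were lower (-0.75 and -0.45). CDF3 stood at 66.5, 67.1 and 76.3 CPM in link1link2, against 112, 119 and 122 CPM in WT.

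Of 35 photoreceptor and light-signalling genes 2 were higher and 5 lower, beside 8.53% and 7.58% of all genes. HY5, a bZIP factor that promotes light responses, had 23, 25.2 and 20.5 CPM in link1link2, against 16.6, 16 and 16.9 CPM in WT. Its log2 fold change was 0.48 ± 0.11 (adjusted p = 0.00235). RUP2, which switches off the UV-B receptor UVR8, and PIF7, a phytochrome-interacting factor, were lower (-0.45 and -0.34). PHYD was the other gene called higher (adjusted p = 0.0335), a call lost without link1link2 A, link1link2 C, WT A or WT C. Without WT A, 3 of the lower calls were left.

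Of 17 B-box factors tested, zinc-finger regulators of light responses and flowering, 8 were lower and none higher, with a median of -0.234. BBX28 stood at 31, 30.9 and 32.2 CPM in link1link2, against 67.4, 73.8 and 69 CPM in WT, a log2 fold change of -1.16 ± 0.09 (adjusted p = 2.27e-13). BBX29, COL2, BBX30 and COL5 had log2 fold changes of -1.44, -0.80, -0.63 and -0.53.

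Of the 18 flowering genes tested, 3 were higher and 2 lower, beside 8.53% and 7.58% of all genes. SVP, a MADS-box repressor of flowering, had 23.62, 22.2 and 25 CPM in link1link2, against 44.8, 42.5 and 47.3 CPM in WT, a log2 fold change of -0.92 ± 0.08 (adjusted p = 1.54e-11). SOC1, a MADS-box activator of flowering, had 8.82, 7.56 and 13.2 CPM in link1link2, against 23.62, 32.2 and 26.5 CPM in WT, a log2 fold change of -1.5 ± 0.18 (adjusted p = 4.34e-07). The genes called higher were the repressors TEM1, SMZ and TOE2 (0.62, 0.43 and 0.24), and none of these calls was left without link1link2 C, 1 without link1link2 B and 1 without WT A. SMZ overlaps another locus, so its value is uncertain. FT, the mobile flowering signal, had 0 reads in link1link2 and 6 in WT, too few to compare.

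In flavonoid synthesis, MYBL2, a repressor of anthocyanin synthesis, had 1.04, 1.92 and 2.02 CPM in link1link2, against 13.9, 17 and 17.64 CPM in WT. Its log2 fold change was -3.3 ± 0.29 (adjusted p = 1.4e-09). PAP1, an activator of anthocyanin genes, had 3.04, 3.27 and 8.19 CPM in link1link2, against 1.93, 2.72 and 1.88 CPM in WT. Library C of link1link2 stood above the other libraries for this gene. PAP1, TT5 (chalcone isomerase), 4CL2 and UGT78D2 were the 4 genes called higher of 25 tested, beside 8.53% of all genes. Their log2 fold changes were 1.09, 0.27, 0.30 and 0.35. Without link1link2 C none of the 4 higher calls was left, without WT A 1, without WT B 1 and without WT C 2.

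Most genes of light harvesting and of the Calvin cycle were lower in link1link2. Of 21 light-harvesting protein genes 14 were lower and none higher, and of 13 Calvin cycle and Rubisco genes 10 were lower and none higher. Of 12 photoprotection genes 6 were lower, and of 15 carotenoid and isoprenoid genes 10 were lower, with none higher in either list. In chlorophyll and tetrapyrrole synthesis 11 of 20 were lower and 1 was higher. Median log2 fold changes were -0.464 for light harvesting, -0.43 for the Calvin cycle, -0.15 for photoprotection, -0.27 for carotenoids and -0.278 for tetrapyrroles, beside 0.019 for all genes. No called gene of the light-harvesting or Calvin cycle lists differed by as much as 2-fold.

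LHCA1, an antenna protein of photosystem I, had 3156, 3470 and 3290 CPM in link1link2, against 5472, 5304 and 5406 CPM in WT, a log2 fold change of -0.71 ± 0.08 (adjusted p = 1.3e-08). LHCB5, a minor antenna protein of photosystem II, and LHCB3, of its outer antenna, had log2 fold changes of -0.65 and -0.51. RCA, which activates Rubisco, had 8591, 9607 and 9783 CPM in link1link2, against 14515, 12769 and 13683 CPM in WT, a log2 fold change of -0.55 ± 0.07 (adjusted p = 1.31e-07). GAPA, SBPASE and RBCS3B, of carbon fixation and reduction, had log2 fold changes of -0.49, -0.52 and -0.57. Reads of LHCB1 and RBCS genes may be shared among near-identical copies, so values of single members of these families are uncertain. In whole seedlings, fewer cells of a type and less RNA per cell cannot be told apart.

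Summed over its members, the light-harvesting list took 66400 to 74100 CPM in link1link2 and 94000 to 96500 CPM in WT. The Calvin cycle list took 38100 to 40900 CPM in link1link2 and 51200 to 57900 CPM in WT. The ranges did not overlap in either list.

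Protochlorophyllide oxidoreductases, which catalyse the light-dependent step of chlorophyll synthesis, differed in sign. PORB had 155, 118 and 122 CPM in link1link2, against 52.6, 68.5 and 54.5 CPM in WT, a log2 fold change of 1.16 ± 0.11 (adjusted p = 6.03e-09). PORC had 198, 181 and 181 CPM in link1link2, against 310, 279 and 269 CPM in WT, a log2 fold change of -0.62 ± 0.07 (adjusted p = 1.77e-08). CHLI1, a subunit of magnesium chelatase, CHLM, the next methyltransferase, and PCB2, the divinyl reductase gene, were lower (-0.52, -0.40 and -0.48). In the carotenoid list, CCD4, a carotenoid cleavage enzyme, was lower (-0.87), as were DXR and DXS, entry enzymes of the plastid isoprenoid pathway (-0.44 and -0.39).

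**Figure D2:**
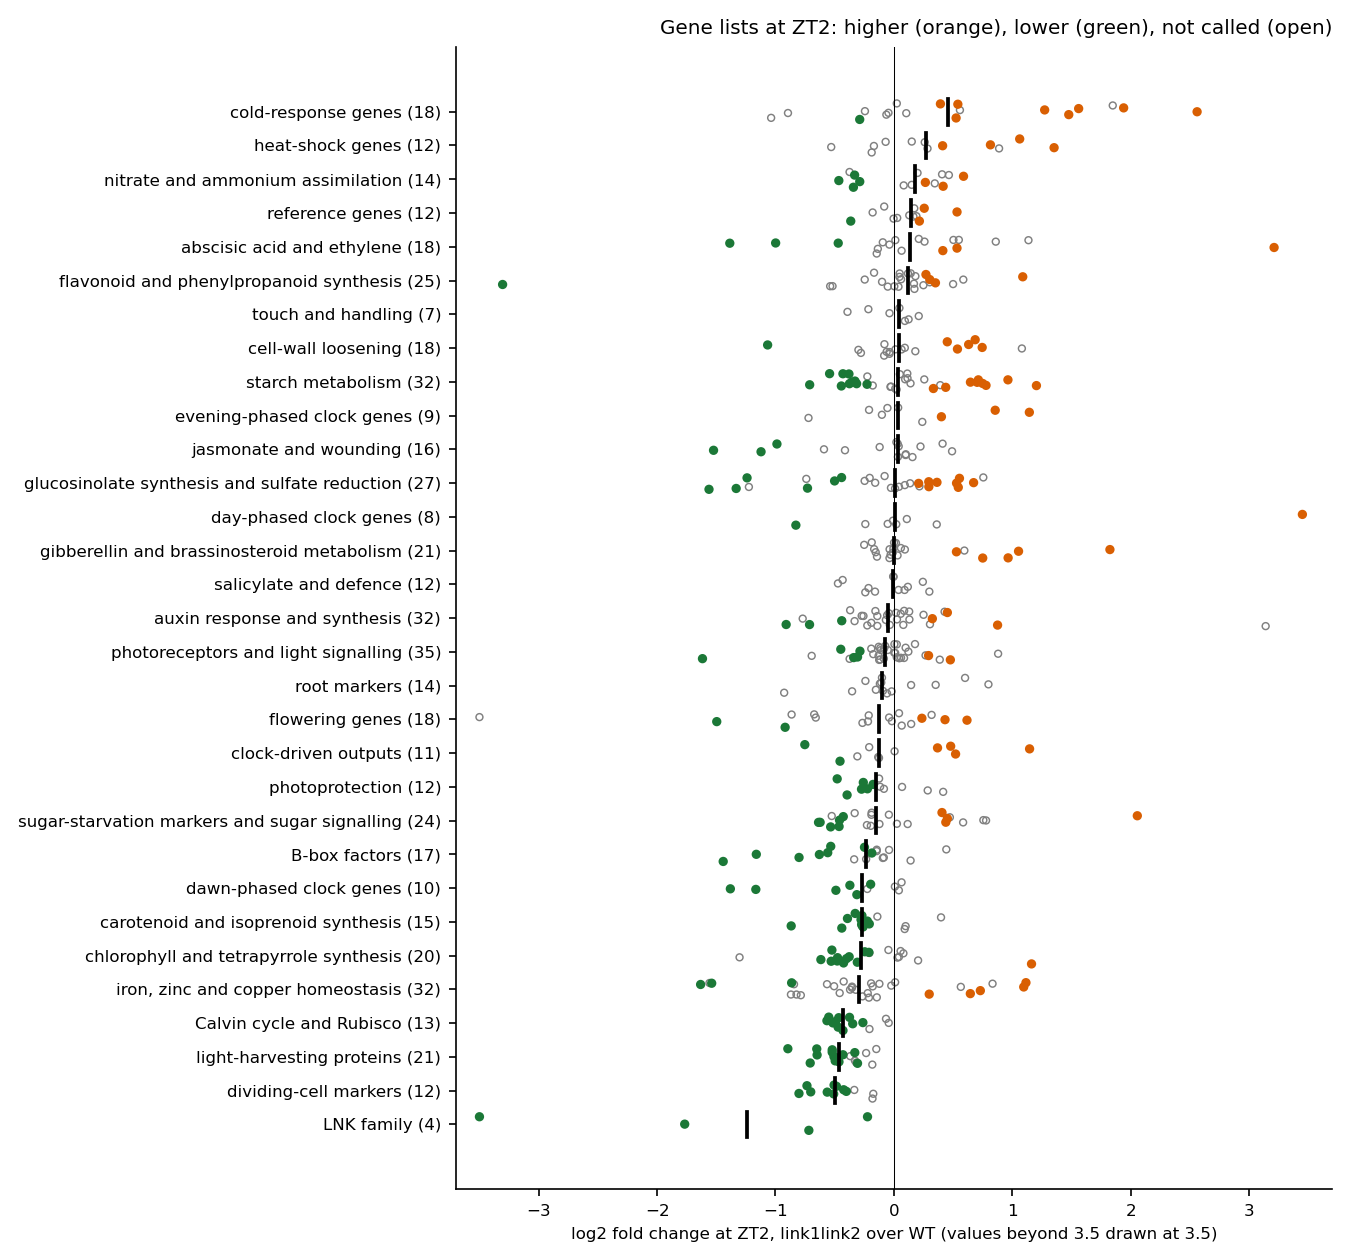
Log2 fold changes at ZT2, link1link2 over WT, of the tested members of the gene lists, one point per gene. Called genes are filled (orange higher, green lower) and the median is a black bar. Extreme values, such as that of LNK2 (-5.93), are drawn at the limit given on the axis. The seed and embryo and the flower and pollen lists are not drawn. Light-harvesting, Calvin cycle and dividing-cell genes lie on the lower side (medians -0.464, -0.43 and -0.495), and cold-response genes on the higher side (median 0.459).

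Starch genes moved both ways, with 9 of 32 tested higher and 10 lower. Of starch breakdown, PWD and SEX1, the dikinases that phosphorylate starch, SEX4, a phosphatase that acts on phosphorylated glucans, and DPE1, which rearranges maltotriose, were higher, as were the amylase gene AMY2 (0.71) and the glucan phosphorylase gene PHS2 (0.44). PWD had 89.9, 75.2 and 83 CPM in link1link2, against 34.3, 37.9 and 35.3 CPM in WT, a log2 fold change of 1.2 ± 0.08 (adjusted p = 3.51e-15). SEX1 had 76.1, 67.5 and 83 CPM in link1link2, against 44.3, 50.4 and 43.8 CPM in WT, a log2 fold change of 0.70 ± 0.09 (adjusted p = 6.11e-08). DPE1 and SEX4 had log2 fold changes of 0.75 and 0.78. Of synthesis, SS4, a starch synthase that initiates granules, and APL3 and APL2, subunits of ADP-glucose pyrophosphorylase (0.65 and 0.33), were higher. SS4 had 55.3, 44.4 and 53.3 CPM in link1link2, against 24.3, 28.8 and 24.7 CPM in WT, a log2 fold change of 0.96 ± 0.11 (adjusted p = 2.22e-08).

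The lower genes included the pyrophosphorylase subunits APL1 (-0.44) and ADG1 (-0.38), the granule-bound synthase GBSS1 (-0.54) and the synthases SS2 (-0.36) and SS3 (-0.31). They also included DPE2 (-0.23) and PHS1 (-0.43), of maltose and glucan metabolism, the beta-amylase genes BAM6 (-0.71) and BAM9 (-0.33), and LSF2 (-0.38), a phosphatase of glucans. APL1 had 138, 131 and 140 CPM in link1link2, against 187, 188 and 181 CPM in WT (adjusted p = 7.97e-07).

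SEN1, a gene induced in darkness and by sugar shortage, had 35.2, 50.2 and 39.5 CPM in link1link2, against 9.75, 9.37 and 11.1 CPM in WT, a log2 fold change of 2.06 ± 0.26 (adjusted p = 2.91e-06). The other sugar-starvation markers of the list did not share this, as ASN1, DIN10, BGLU30, BCAT2 and MCCB were not called and MCCA was lower. The sucrose transporter SWEET11 and TPS5 were higher (0.41 and 0.44), as was SWEET12 (0.45), whose call was lost without link1link2 A, link1link2 B or WT B. TPS8, TPS9 and TPS11, of the class II trehalose phosphate synthases, and the hexose transporter STP1 were lower (-0.53, -0.43, -0.64 and -0.62). The list of 24 sugar-starvation and sugar-signalling genes had 4 higher and 6 lower calls, beside 8.53% and 7.58% of all genes.

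In nitrate and ammonium assimilation 3 of 14 were higher and 4 lower, beside 8.53% and 7.58% of all genes. GLN2, plastid glutamine synthetase, and GLU1, ferredoxin-dependent glutamate synthase, were lower (-0.47 and -0.34), the GLU1 call not without link1link2 B. NRT1.7, a nitrate transporter of phloem loading, had 47.9, 50.7 and 66.7 CPM in link1link2, against 37.6, 36.1 and 36 CPM in WT (log2 fold change 0.59, adjusted p = 1.41e-05). Without WT A, 1 higher call was left in this list.

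Of 27 glucosinolate and sulfate-reduction genes 8 were higher and 6 lower. In the indolic branch, which starts from tryptophan, CYP79B2, CYP79B3 and CYP83B1 were higher. CYP83B1 had 261, 262 and 247 CPM in link1link2, against 161, 145 and 178 CPM in WT, a log2 fold change of 0.67 ± 0.07 (adjusted p = 1.4e-09). CYP79B3, CYP79B2 and the sulfotransferase gene SOT16 had log2 fold changes of 0.53, 0.54 and 0.55. In the aliphatic branch, which starts from methionine, MAM1, BCAT4, CYP79F1 and CYP83A1 were lower. MAM1 had 38.1, 27.5 and 27.8 CPM in link1link2, against 86.3, 59.1 and 78.8 CPM in WT, a log2 fold change of -1.24 ± 0.19 (adjusted p = 3.1e-05). CYP79F1, BCAT4 and CYP83A1 had log2 fold changes of -1.33, -1.56 and -0.73. The regulators did not all share the sign of their branch. MYB28, of the aliphatic branch, was higher (0.29). Of the indolic regulators MYB34 was higher (0.30) and MYB51 lower (-0.44). The regulators MYB29, MYB76 and MYB122 were not called. With the ZT2 libraries fitted alone, MAM1 was the 1 lower call left, and 4 of the 6 were left without link1link2 A, link1link2 C, WT A or WT C.

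Calls in metal homeostasis depended on single libraries. FSD1, iron superoxide dismutase, had 901, 1190 and 1446 CPM in link1link2, against 747, 693 and 692 CPM in WT (log2 fold change 0.73, adjusted p = 0.00123), and the call was lost with the ZT2 libraries alone. YSL1, a transporter of metal chelates, was higher (1.12). IRT1, the main iron uptake transporter of roots, had 26.5, 32.5 and 3.48 CPM in link1link2, against 78.2, 46.9 and 59.8 CPM in WT (log2 fold change -1.54, adjusted p = 0.0436). The lowest value was that of link1link2 C, and the call was lost without link1link2 A, link1link2 C, WT A or WT C. Of 32 tested, 5 were higher and 3 lower, beside 8.53% and 7.58% of all genes. Without link1link2 C there were 2 and 1, without link1link2 A 6 and 6, without link1link2 B 3 and 3, without WT A 3 and 1, and without WT B 3 and 5.

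Of 18 cold-response genes 8 were higher and 1 lower, with a median of 0.459. With the ZT2 libraries fitted alone 5 were higher. COR15B, a stroma protein that protects chloroplast membranes in the cold, had 33.7, 26.6 and 51.2 CPM in link1link2, against 4.36, 6.73 and 7.66 CPM in WT, a log2 fold change of 2.56 ± 0.30 (adjusted p = 8.05e-07). It overlaps AT2G42520, and without strand information its value is uncertain. COR413IM1, of the chloroplast inner membrane, had 15.7, 14.3 and 19.3 CPM in link1link2, against 3.98, 4.32 and 4.48 CPM in WT, a log2 fold change of 1.94 ± 0.17 (adjusted p = 5.18e-11). KIN2 had 204, 225 and 260 CPM in link1link2, against 72.8, 92.3 and 81.2 CPM in WT, a log2 fold change of 1.48 ± 0.13 (adjusted p = 4.15e-09).

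KIN1, a near-identical copy of KIN2, and RD29A, a dehydration and cold gene, were also higher, with link1link2 C well above the other libraries. RD29A had 133, 154 and 270 CPM in link1link2, against 64, 88.1 and 76.5 CPM in WT, and its log2 fold change was 1.27. ICE1, an upstream regulator of the cold response, was the lower gene (-0.29). CBF1, CBF2 and CBF3, the factors that induce these genes in the cold, had 1, 8 and 7 reads in link1link2 and 0, 16 and 13 in WT, too few to compare.

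Among 12 heat-shock genes tested, 4 were higher and none lower. HSP90.1 had 55.7, 76.2 and 71.8 CPM in link1link2, against 32.3, 28.2 and 38 CPM in WT, a log2 fold change of 1.06 ± 0.12 (adjusted p = 1.55e-07). HSP70, the heat-induced regulator HSFA2 and the constitutive chaperone HSC70-1 had log2 fold changes of 0.82, 1.35 and 0.41. Without link1link2 A, 7 were higher. The list summed to 4790 to 5540 CPM in link1link2 and 3690 to 3960 CPM in WT. None of 7 touch and handling genes passed in edgeR or DESeq2 (1 had an unadjusted p under 0.05 in edgeR), and their sums, 104 to 137 CPM in link1link2 and 118 to 130 CPM in WT, overlapped. None of 12 salicylate and defence genes passed in either tool, with 1 at an unadjusted p under 0.05, and 1 was lower in edgeR without link1link2 B or WT B. In the jasmonate list 3 of 16 were lower and none higher, beside 7.58% and 8.53% of all genes. The lower genes were THI2.2, VSP2 and AOC2 (-1.12, -1.52 and -0.99), and the AOC2 call was lost without link1link2 B.

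**Figure D3:**
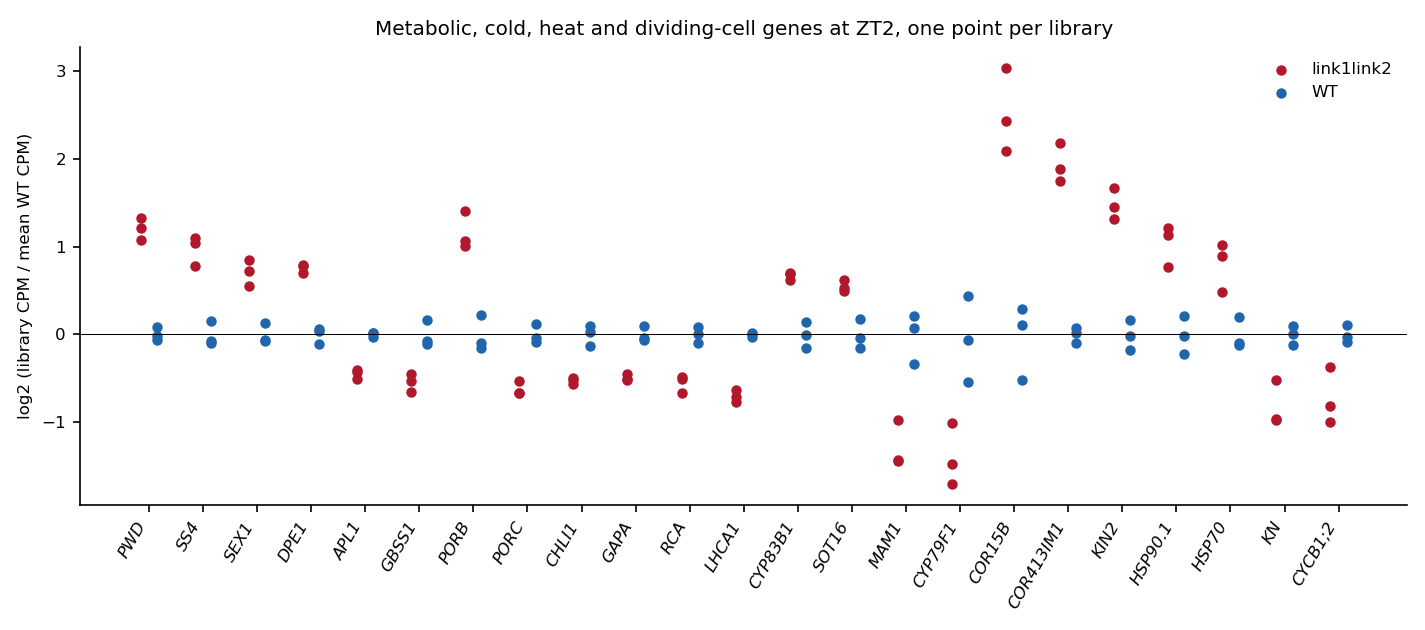
Level of selected genes in each ZT2 library on a log2 scale relative to the mean of the WT libraries, link1link2 (red) left of WT (blue), one point per library. Genes such as PWD, PORB, CYP83B1, COR413IM1 and HSP90.1 lie above the WT points in all 3 link1link2 libraries, and LHCA1, RCA, MAM1 and CYCB1;2 lie below them.

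Of 32 genes of auxin response and synthesis 3 were higher and 3 lower, near the 8.53% and 7.58% of all genes, with IAA7, a repressor of auxin responses, higher (0.45) and SAUR16, an early auxin-response gene, lower (-0.71). Without WT B the lower calls came to 5. In gibberellin and brassinosteroid metabolism 5 of 21 were higher and none lower, beside the same shares of all genes. GID1A, a gibberellin receptor gene, had 15.7, 16.5 and 20.5 CPM in link1link2, against 9.5, 11.8 and 9.25 CPM in WT, a log2 fold change of 0.75 ± 0.11 (adjusted p = 4.99e-06). GA20OX1, of gibberellin synthesis, was higher (1.82) from low levels. GA2OX2, of gibberellin inactivation, was also higher (1.05), a call lost with the ZT2 libraries alone and without link1link2 B, WT A or WT B. The higher calls in this list came to 3 without link1link2 A or WT A and to 2 without WT B.

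Of 18 cell-wall loosening genes 5 were higher and 1 lower, beside 8.53% and 7.58% of all genes. EXP3, an expansin, had 150, 142 and 130 CPM in link1link2, against 86.1, 84.7 and 92.2 CPM in WT (log2 fold change 0.69, adjusted p = 1.43e-08). EXPA8, another expansin, had 64.1, 66 and 66 CPM in link1link2, against 139, 129 and 144 CPM in WT (log2 fold change -1.07, adjusted p = 1.41e-05). The higher calls came to 3 without link1link2 B or WT B, and the lower calls to 2 without link1link2 A or link1link2 C. In the abscisic acid and ethylene list 3 of 18 were higher and 3 lower, beside the same shares of all genes. Either count came to 2 when some single libraries were left out. CYP707A2 and CYP707A3, of abscisic acid breakdown, were lower (-1.39 and -1), as was ABA2, of its synthesis (-0.47). The CYP707A3 call was lost with the ZT2 libraries alone and without link1link2 A, link1link2 C, WT A or WT C. ACS8, of ethylene synthesis, had 32 reads in link1link2 and 3 in WT, a 10.2-fold excess with a counting interval from 3.21 to 52.3, and its call was lost without link1link2 B, link1link2 C, WT A or WT B.

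Markers of dividing cells were lower. Of 12 tested 9 were lower and none higher, with a median of -0.495, and 6 to 10 were lower when 1 library was left out. CYCB1;2, a mitotic cyclin, had 24.7, 16 and 18.18 CPM in link1link2, against 31.4, 34.4 and 30.2 CPM in WT, a log2 fold change of -0.70 ± 0.14 (adjusted p = 0.000546). The kinase gene AUR1 and KN, the syntaxin of cell division, had log2 fold changes of -0.73 and -0.80, both uncertain because the genes overlap other loci. The list summed to 162 to 219 CPM in link1link2 and 266 to 282 CPM in WT. The part of this difference in the results of other lists was not tested.

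Of 14 root markers tested none passed in edgeR or DESeq2, with 1 at an unadjusted p under 0.05. Their log2 fold changes ran from -0.93 to 0.80. The list summed to 122 to 139 CPM in link1link2 and 117 to 142 CPM in WT. SCR weighed most in this sum, with 3828 reads over the 6 ZT2 libraries, and CASP1 came next with 1175. Of 15 seed and embryo markers 7 had no read in any ZT2 library and 3 were tested, of which none passed in either tool or had an unadjusted p under 0.05. Of 9 flower and pollen markers AP1, AP3, AG and MS1 had no read. PI, a petal and stamen identity gene, had 2.47, 3.39 and 3.93 CPM in link1link2, against 0.513, 0.881 and 0.578 CPM in WT (adjusted p = 0.0117), a call lost without link1link2 C or without WT A. Of 12 common reference genes TUB4, ACT8 and ACT2 were higher (0.53, 0.26 and 0.22) and UBQ10 was lower (-0.36). The calls of ACT8 and ACT2 were lost without link1link2 B or without WT B.

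Some of the largest differences lay outside the lists. AT3G01345, which encodes an uncharacterized protein, had 1.99, 2.15 and 1.23 CPM in link1link2, against 441, 447 and 407 CPM in WT, a log2 fold change of -7.9 ± 0.17 (adjusted p = 1.87e-26). MRD1 had 4 reads in the 3 link1link2 libraries together and 1151 in WT. HEI10, a crossover factor, had a log2 fold change of -4.55. MRD1 and HEI10 overlap on the genome, and reads of one may have been counted for the other. AT3G01345, MRD1 and HEI10 were also lower at ZT6, at ZT22 and in continuous light. CIPK20, a kinase gene of calcium signalling, had 0.949, 0.564 and 1.122 CPM in link1link2, against 16.3, 23 and 16.3 CPM in WT (log2 fold change -4.4, adjusted p = 2.46e-14). FBA5, an aldolase gene, had 90.3, 112 and 79.4 CPM in link1link2, against 369, 354 and 421 CPM in WT (log2 fold change -2.02, adjusted p = 5.79e-13).

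On the higher side, OEP16-1, a channel of the plastid outer envelope, had 36.1, 37 and 38.5 CPM in link1link2, against 10.3, 11.5 and 9.69 CPM in WT, a log2 fold change of 1.8 ± 0.08 (adjusted p = 6.77e-21). RIBA2, of riboflavin synthesis, had 13.3, 13.3 and 14 CPM in link1link2, against 4.75, 3.84 and 2.75 CPM in WT (log2 fold change 1.82, adjusted p = 1.91e-14). GRP3S, a glycine-rich protein gene, had 615, 804 and 1268 CPM in link1link2, against 203, 293 and 246 CPM in WT (log2 fold change 1.85, adjusted p = 0.00016). The link1link2 libraries of GRP3S were spread more widely than those of the others, with library C highest.

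The ZT2 difference was set against those at other times, to show for which genes it depended on the hour. At ZT6, 4119 genes (20.1%) were called, and at ZT22, 6285 (30.6%). The shares called were 22.1% at ZT10, 14.7% at ZT14 and 20.2% at ZT18. Of the ZT2 calls, 732 were called at no other time, and 59 were called with the same sign at all 6 times. The difference at ZT2 itself differed from that at ZT6 for 2096 genes (10.2%), from that at ZT22 for 3821 (18.6%) and from the mean of the other 5 times for 2722 (13.3%). Of the genes called at ZT2, 1781 differed from that mean, and 733 of these also differed from the difference at ZT6.

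ZT2 and ZT6 shared 1370 calls, 41.4% of those at ZT2 and 33.3% of those at ZT6, of which 277 had opposite signs. ZT2 and ZT22 shared 1583, 47.9% of those at ZT2 and 25.2% of those at ZT22, of which 437 had opposite signs. Opposite signs were found in 663 of 1332 calls shared with ZT10, 406 of 926 shared with ZT14 and 447 of 1101 shared with ZT18. In continuous light the genotypes differed for 1039 of 20158 genes (5.15%). Of the genes tested in both experiments, 386 were called in both, 11.8% of the ZT2 calls and 37.4% of the continuous-light calls, with 270 of the same sign and 116 of opposite signs. LNK2, LNK1, CCA1, LHY and RVE1 were lower there as well, with log2 fold changes of -3.05, -0.74, -0.73, -0.99 and -0.80.

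Named genes show how the sign depended on the hour. LNK1 was lower at ZT2 (-1.77) and ZT6 (-1.63) and higher at ZT14 (2.48), ZT18 (3.36) and ZT22 (1.56), when WT levels were low. At ZT14 it averaged 26.2 CPM in link1link2 and 4.58 CPM in WT. CCA1 and LHY had log2 fold changes of -3.01 and -3.05 at ZT22, and LHY one of 1.43 at ZT6, so that the ZT2 difference of LHY lay between opposite signs. RVE8 followed the same order, with -1.54 at ZT22, -0.31 at ZT2 and 1.38 at ZT6. LNK4 had log2 fold changes of -0.22 at ZT2, 3.28 at ZT10 and 6.7 at ZT14.

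BBX28 was lower at ZT2 and at ZT6 (-1.33) and higher at ZT22 (1.36). The light-harvesting genes had medians of -0.464 at ZT2, -0.417 at ZT6 and 0.272 at ZT22. At ZT6, 16 of them were lower and none higher, and at ZT22, 10 were higher and 5 lower. The Calvin cycle genes had medians of -0.43 at ZT2, 0.173 at ZT6 and -0.489 at ZT22. Of the cold-response genes, 8 were higher at ZT2, and at ZT6 12 were lower and none higher (median -0.564). KIN2 averaged 230 CPM in link1link2 and 82.1 CPM in WT at ZT2, and 71.5 CPM in link1link2 and 505 CPM in WT at ZT10. PWD averaged 82.7 CPM in link1link2 and 35.8 CPM in WT at ZT2, and 165 CPM in link1link2 and 412 CPM in WT at ZT10. The dividing-cell markers had medians of -0.495 at ZT2, -0.018 at ZT6 and -0.087 at ZT22.

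**Figure D4:**
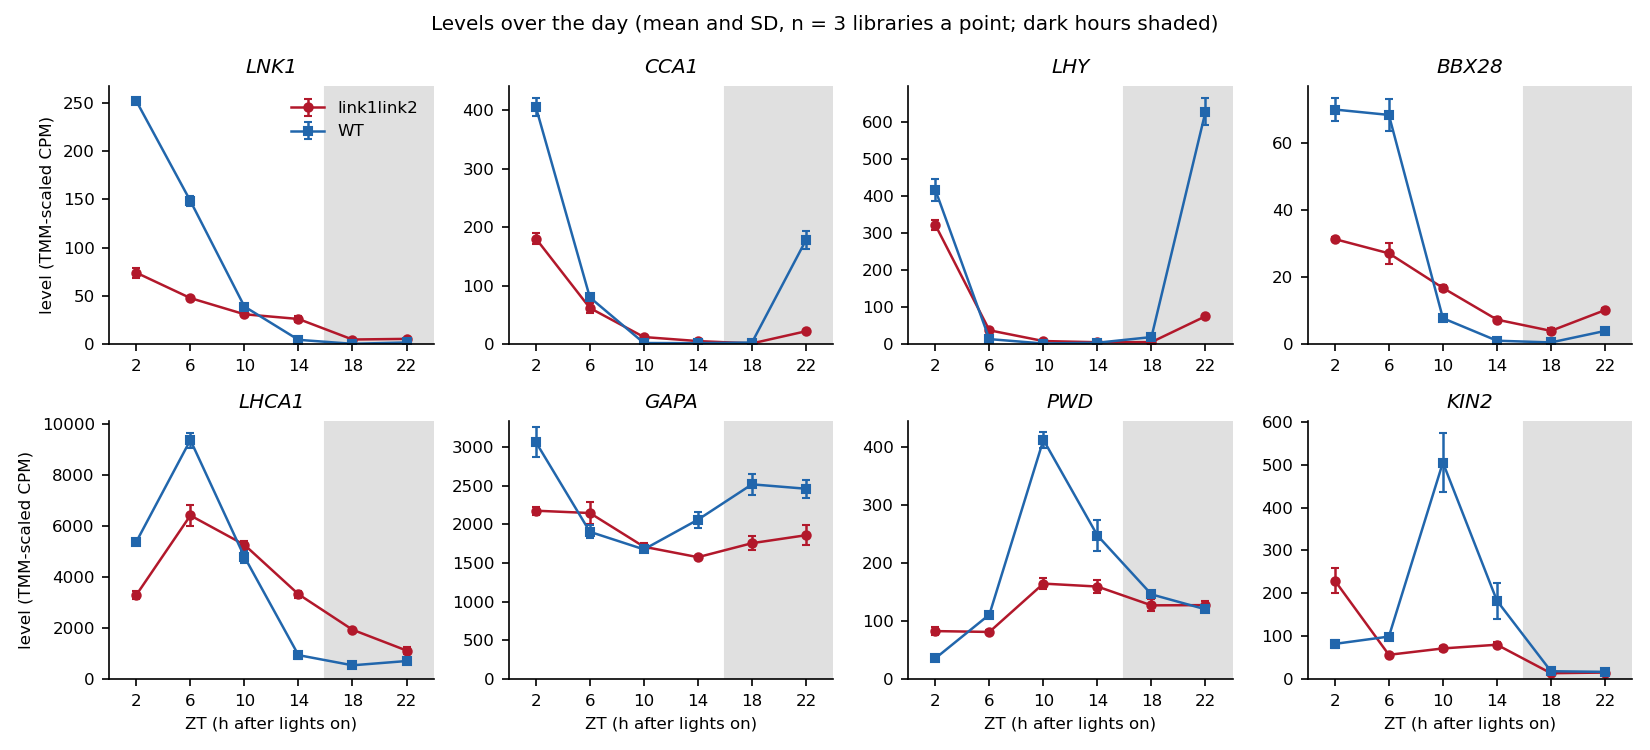
Mean levels in TMM-scaled CPM of 8 genes over the day, with SD (n = 3 libraries a point), for link1link2 (red circles) and WT (blue squares), against hours after lights on, with the dark hours shaded. At ZT2 the link1link2 mean is below WT for LNK1, CCA1, LHY, BBX28, LHCA1 and GAPA and above it for PWD and KIN2, which are higher in WT at ZT10.

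The WT libraries of the other times are not among those compared at ZT2, though they were part of the fit that set the calls. They place the called genes in the day with ZT2 left out, so a gene highest at ZT2 falls to another time. Of the 1556 genes lower at ZT2, 50.2% had their highest WT mean of ZT6 to ZT22 at ZT6, beside 10.5% of the 1750 genes higher at ZT2 and 24.4% of all genes tested. Of the genes higher at ZT2, 28.6% were highest at ZT14 in WT, beside 18.4% of those lower and 20.9% of all. In WT, 24.3% of the lower genes rose between ZT18 and ZT22 in the same model, beside 14.9% of the higher genes and 11.1% of all genes. The shares that fell between these times were 20.6% of the lower genes, 20.2% of the higher genes and 10.9% of all genes.

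**Figure D5:**
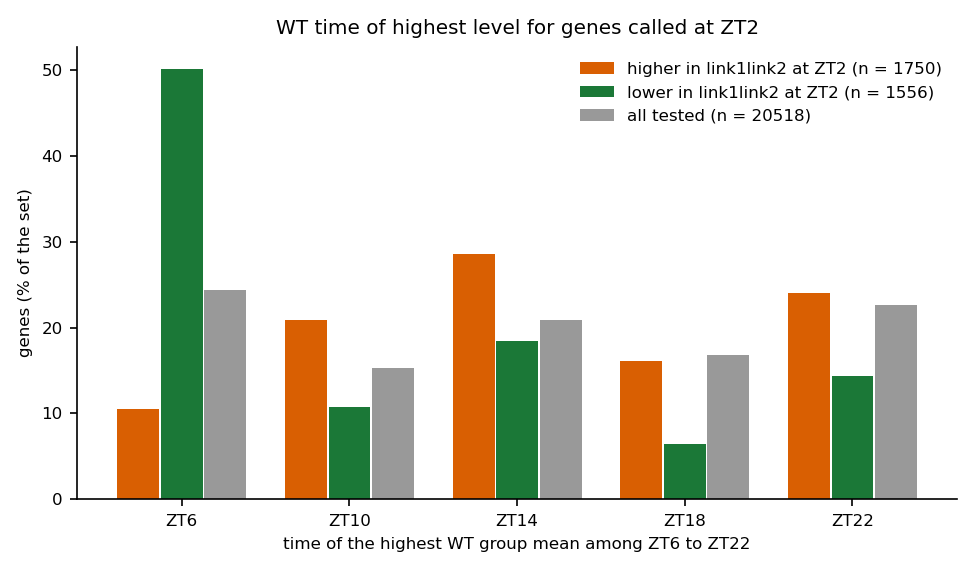
Share of genes, in percent of each set, whose highest WT group mean among ZT6 to ZT22 fell at the time on the horizontal axis, for genes higher (orange) and lower (green) in link1link2 at ZT2 and for all genes tested (grey). Of genes lower at ZT2, 50.2% were highest at ZT6, and of genes higher at ZT2, 28.6% were highest at ZT14.

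The 10 genes lower at ZT2 whose difference differed with the smallest p from the mean of the other times were LNK1, LNK2, LNK4, BBX28, COL5, LHCA1, LHCA4, LHCB3, AT1G55960 and NDA1. The 10 on the higher side were OEP16-1, RIBA2, PWD, SEX1, AT2G21130, CHL, ALDH5F1, PTAC17, THIC and OEP6. The annotation names OEP16-1 and OEP6 as plastid envelope proteins, CHL as chloroplast lipocalin and PTAC17 as part of the plastid transcription complex. OEP16-1 averaged 70.6 CPM in link1link2 and 271 CPM in WT at ZT10. CHL was lower at ZT6 (-1.04) and higher at ZT2 (1.07). PTAC17 was higher at ZT2 (0.95) and had a log2 fold change of -0.18 at ZT6 (adjusted p = 0.0907). NDA1, an alternative NAD(P)H dehydrogenase, had 201, 214 and 224 CPM in link1link2, against 297, 280 and 276 CPM in WT at ZT2, and was higher at ZT6 (0.77).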

How the data were processed

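The labels' protocols state that polyadenylated RNA was purified and made into random-primed TruSeq libraries, and do not state that strand was kept. The authors deposited raw counts per locus, 33602 loci in each table, and the build was TAIR10, per the submitters' processing notes. The aligner, the counting tool and the treatment of reads with several locations are not given in the sources used here.

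The 36 long-day libraries were fitted together with edgeR 4.0.16 in R 4.3.3 (12 groups, 24 residual degrees of freedom), after filterByExpr and TMM scaling, with the robust quasi-likelihood test and Benjamini-Hochberg adjustment within each comparison. Continuous light was fitted alone. The program was tested on simulated data. Fold changes are log2 of link1link2 over WT, with the SE implied by the test. Counting intervals are exact at 95% and cover counting error only.

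Of the loci, 97.7% matched a TAIR10.1 locus tag, which gave symbols, overlaps and promoters. Where an overlapping locus held at least 50% as many counts, a gene's value is called uncertain (11 of 187 named genes). The members and lists were chosen with earlier results of these data known. Genes were named by rule: all LNK and clock genes, up to 4 called genes per direction and other list by smallest p, the 12 highest and 12 lowest called genes without overlap between groups, and mean log2 CPM from 1 upwards, and the 10 per direction that differed most from the other times. Other genes named were chosen after their values were seen. Chi-square values per degree of freedom between replicates, 2.35 to 12.9, were above those of repeated counting of the same library, and the highest pairs held link1link2 C. Alternatives were DESeq2 1.42.0, its size factors, no filter, the ZT2 libraries alone, organelle genes or plastid-rich libraries left out, each library left out, a test against 1.5-fold and a block by column letter.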

Additional observations from a re-analysis of the deposited data

Results flagged for a closer look

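The genotype difference at ZT2 was tested against that at other times, and the test of the difference itself picked out 2096 genes against ZT6, 3821 against ZT22 and 2722 against the mean of the other 5 times in edgeR. Among genes lower at ZT2, the 10 with the smallest p against that mean were LNK2 (-5.15), LNK4 (-3.35), LNK1 (-2.85), BBX28 (-2.52), LHCB3 (-2.03), LHCA4 (-1.88), COL5 (-1.71), NDA1 (-1.63), LHCA1 (-1.49) and AT1G55960 (-1.27), with the log2 difference of differences in brackets. Among genes higher at ZT2 they were AT2G21130 (2.92), OEP16-1 (2.51), RIBA2 (2.15), PWD (1.71), CHL (1.71), SEX1 (1.68), ALDH5F1 (1.46), OEP6 (1.46), THIC (1.22) and PTAC17 (1.14). These 20 were chosen by that very test, so their sizes are a description. At ZT2 itself the log2 fold change of LNK4 was -0.22.

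Clock genes called in opposite directions at ZT2 and ZT22 were LNK1 and RVE7, whose ZT2 difference minus that of ZT22 was -3.32 and -0.93. Those called in opposite directions at ZT2 and ZT6 were LHY, RVE8 and LNK4, whose ZT2 difference minus that of ZT6 was -1.8, -1.7 and -0.76. The LNK4 call at ZT2 was lost in DESeq2, with the ZT2 libraries alone, and without link1link2 A, link1link2 B or WT B. No test for an outlying library was made in these groups of 3.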

How the results depend on the processing

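The 3306 calls at ZT2 came to 3258 with DESeq2 size factors, 2769 with the DESeq2 test, 3013 without a filter and 3193 without organelle genes. They came to 2028 (911 higher) with the 6 ZT2 libraries fitted alone and to 104 (39 higher, 65 lower) in a test against a 1.5-fold change. Without the 4 long-day libraries over 2% plastid counts there were 1068 higher calls and 2190 genes that differed between ZT2 and ZT22. This leaves 1 link1link2 library at ZT22, which is assumed to vary like the other groups. Leaving out 1 library at a time gave 2302 to 3214 calls, 948 to 1723 higher and 1302 to 1567 lower. It gave 1635 to 2097 genes that differed from ZT6, 3332 to 3636 from ZT22 and 2055 to 2597 from the mean of the other times. The causes were not tested. The share of ZT2 calls also made in continuous light was 9.11% at an adjusted p under 0.01 in both and 15% with the ZT2 libraries alone, beside 11.8%. No named gene called at ZT2 reversed its sign under these alternatives, and 8 named clock genes that were not called did (RVE2, ASG4, PRR5, FKF1, LKP2, LUX, COR27 and AT4G33980). Of the 171 named genes called, 30 were no longer called with the ZT2 libraries alone, where 4 others (LAF1, GA20OX1, ACS8 and RK3) were not tested, 23 without link1link2 C and 7 with the DESeq2 test. With the ZT2 libraries alone the higher calls came to 0 of 3 in the flowering list, 1 of 5 for metal homeostasis (lower calls 0 of 3), 2 of 5 for gibberellin and brassinosteroids, 3 of 5 for the cell wall, 1 of 3 for abscisic acid and ethylene and 1 of 3 for reference genes. At this depth, genes such as COR27 and FT held too few reads to compare.

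A replicate block by column letter gave 3376 calls (1791 higher, 1585 lower). The letters match no replicate number in the labels, and same-letter libraries did not deviate together (correlations of 0, -0.32 and -0.17), so they were not taken as pairs.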

Other observations

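Genes called the same way sometimes stood next to each other on the genome. The runs of 4 described here were found after the values were seen, so no test is attached. On chromosome 4, AT4G16870, RPP4, AT4G16880 and SNC1, in a cluster of disease resistance genes, were all lower at ZT2. RPP4 had 4.93, 4.63 and 4.49 CPM in link1link2, against 18.1, 19.1 and 18.6 CPM in WT, SNC1 had 100, 91 and 84.8 CPM in link1link2, against 163, 171 and 162 CPM in WT, and the nearby RPP5 and AT4G16920 were lower (-1.24 and -1.11). The disease resistance genes AT4G16900, AT4G16940 and AT4G16960 of the same cluster were not called (-0.14, -0.24 and -0.16). The 4 genes of the run were also lower at ZT6 and at ZT22. Reads may be shared between similar copies. On chromosome 2, AT2G29290, AT2G29300, AT2G29310 and AT2G29320 were lower at ZT2, ZT6 and ZT22, with log2 fold changes of -1.22 to -0.79 at ZT2. On chromosome 4, FBA7, FBA5, AT4G26540 and AT4G26542 were lower at the same times.

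On chromosome 5, AT5G47980, CYP705A5, CYP708A2 and THAS1, neighbours known for the synthesis of thalianol, a root triterpene, were all higher at ZT2. THAS1, thalianol synthase, had 17.36, 24.8 and 44.4 CPM in link1link2, against 10.5, 9.53 and 10.4 CPM in WT, with link1link2 C highest and a log2 fold change of 1.5 (adjusted p = 0.00952). The 4 genes were also higher in continuous light, 2 were higher at ZT6, and none was called in either direction at ZT22, with adjusted p from 0.634 to 0.994.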
